A study of Mus musculus with 24 samples.

Results

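The glutathione S-transferases (Gst), UDP-glucuronosyltransferases (Ugt) and cytosolic sulfotransferases (Sult) are the main conjugating enzymes of liver, and 62 genes of these families were followed in ApoF knockout and wild-type mice. The members were taken by gene symbol from the deposited gene tables, without pseudogenes and without 1 Ugt1 gene that is not analysed here, and comprised 22 Gst, 19 Ugt and 21 Sult genes of 25239 genes listed. All 62 had a RefSeq entry, and 52 of them lay in 11 clusters of neighbouring members in the GRCm38.p6 annotation.

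Conjugating enzymes attach a polar group to drugs, steroids, bile acids, bilirubin and reactive lipid products, which makes these easier to export into bile and urine. Gst enzymes use glutathione, Ugt enzymes use glucuronic acid carried on UDP, and Sult enzymes use sulfate carried on PAPS. In mouse liver several of these genes are known to differ between the sexes under growth hormone control, the pi class Gst genes being higher in males and several Sult2a and Sult3a genes higher in females.

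Liver RNA came from 12 C57BL/6 mice in 4 groups of 3, which were ApoF knockout (KO) at 8 weeks, wild type (WT) at 8 weeks, KO at 28 weeks and WT at 28 weeks of age. The targeted gene encodes an apolipoprotein that the liver secretes. Each animal gave 1 input library and 1 library enriched by immunoprecipitation (IP) for RNA bearing N6-methyladenosine (m6A), which makes 24 libraries. The sex of the animals, the deleted part of the gene and the makeup of the replicates beyond separate animal numbers are not stated in the labels.

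Values per library are not in the tables used here, so each RNA level below is a group mean of normalized counts worked out from the mean and ratio of its table, and the spread between animals enters only through the SE of the log2 ratio. Over all genes these means added up to 39824285 to 41989205 per table. Apof itself was lower in KO livers but not absent, at 14414 normalized counts in KO and 23454 in WT at 8 weeks, and at 11839 in KO and 23860.3 in WT at 28 weeks. Y-linked RNA set 1 group apart. The 4 genes Ddx3y, Kdm5d, Eif2s3y and Uty summed to 4965 normalized counts in KO and 3.49 in WT at 8 weeks, with Ddx3y, Kdm5d and Uty under 1 in WT, and to 4680.3 in KO and 4506 in WT at 28 weeks. Xist, the RNA that coats the inactive X chromosome, stood at 10192 normalized counts in KO and 21017 in WT at 8 weeks, and at 8903 in KO and 8747 in WT at 28 weeks. In the authors' deposited tables its log2 ratio had an SE of 2.15 at 8 weeks and 2.57 at 28 weeks. The 8-week WT group was therefore nearly without Y-linked RNA and the other groups were not. Genotype at 8 weeks, or age in WT, and the sex makeup of the groups therefore cannot be told apart. Both Y-linked RNA and Xist were present in the other groups, and the makeup of these by sex is not known. Its part in the genotype comparison at 28 weeks and in age in KO was not tested. Libraries could not be left out of any comparison, as the tables hold no values per library.

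At 8 weeks 2 of 3 pi class and 3 of 7 mu class Gst genes and 1 Ugt gene rose in KO livers, and 3 theta class Gst genes and 4 Sult genes fell. Of 53 members with an adjusted p, 13 passed an adjusted p under 0.05 in the authors' deposited table (DESeq2 Wald test, Benjamini-Hochberg over the table), with 6 higher and 7 lower. Over all 15214 genes tested 4.98% passed, 2.48% higher and 2.5% lower. The median log2 ratio of KO over WT was -0.18 over the tested members and 0.01 over all genes tested. By family, 5 Gst genes rose and 3 fell of 21 tested, 1 Ugt gene rose of 17 tested, and 4 Sult genes fell of 15 tested.

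Gstp1 and Gstp2 encode pi class transferases, which conjugate small electrophiles. Gstp1 averaged 8801 normalized counts in KO livers and 2296 in WT livers at 8 weeks. Its log2 ratio in the authors' deposited table was 1.94 ± 0.44 (SE, 3 animals per group, adjusted p = 0.000907, DESeq2). Gstp2 stood at 1709 in KO and 466 in WT livers, with 1.87 ± 0.49 in the authors' deposited table (adjusted p = 0.00645, DESeq2). Their neighbour Gstp3 did not pass, at 980.0 normalized counts in KO and 671 in WT. Gstp1 and Gstp2 are near-identical copies, and how reads that match both were counted is not stated, so the split of counts between them is uncertain.

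The upstream windows of these neighbours on chromosome 19 are shown because both genes had the same direction and a similar size of change. They are the 250 bases before the RefSeq start of each gene in GRCm38.p6, both on the minus strand, at chr19:4037913-4038162 for Gstp1 and chr19:4042222-4042471 for Gstp2. Capitals mark the letters TGAGTCAGC, which both AP-1 and Maf factors are known to recognise.
Gstp1: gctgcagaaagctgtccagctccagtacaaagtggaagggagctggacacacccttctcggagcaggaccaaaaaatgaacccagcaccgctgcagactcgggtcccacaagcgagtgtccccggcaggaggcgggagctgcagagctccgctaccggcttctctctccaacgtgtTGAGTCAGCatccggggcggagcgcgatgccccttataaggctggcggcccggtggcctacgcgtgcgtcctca
Gstp2: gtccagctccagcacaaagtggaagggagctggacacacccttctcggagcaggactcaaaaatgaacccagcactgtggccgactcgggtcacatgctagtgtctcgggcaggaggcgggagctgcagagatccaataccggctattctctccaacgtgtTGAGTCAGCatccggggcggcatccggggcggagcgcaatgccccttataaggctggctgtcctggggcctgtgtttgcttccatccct
The match begins 74 bases before the start in Gstp1 and 89 bases before it in Gstp2. Searched on both strands in windows of 300 bases, the same letters stand in 0.414% of 32851 RefSeq promoters and in no other member than these of the 54 members with a promoter sequence. This motif was chosen after the sequences were seen, and a match is a description of letters, not a bound site. The 300-base windows of Gstp1 and Gstp2 were identical at 82% of bases, against 60.7% for Gstp1 and Gstp3. The shorter antioxidant response core TGACNNNGC was found in 12.4% of all promoters and in those of Gsta3, Gstm5 and Gstm7 among the members.

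The 7 mu class genes lie side by side on chromosome 3, and all 7 had a positive log2 ratio of KO over WT at 8 weeks, of which 3 passed. Gstm3 averaged 5632 normalized counts in KO and 1334 in WT livers, a log2 ratio of 2.08 ± 0.45 in the authors' deposited table (adjusted p = 0.000306, DESeq2). Gstm4 rose to 4356 in KO, against 2357 in WT, and Gstm6 to 3202 in KO, against 1986 in WT. Their log2 ratios were 0.89 ± 0.27 and 0.69 ± 0.19 in the authors' deposited table (adjusted p = 0.0259 and 0.00801, DESeq2). Gstm1, the mu class gene with the highest counts without regard to length, did not pass, at 38469 in KO and 33480.4 in WT. Gstm2, Gstm5 and Gstm7 had log2 ratios between 0.25 and 0.58 in the authors' deposited table and did not pass. Sequence is similar within this class too, and reads may be shared between its genes.

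All 3 tested theta class genes fell in KO livers at 8 weeks, and they too are neighbours, on chromosome 10. Gstt3 stood at 963 normalized counts in KO and 2611 in WT livers, a log2 ratio of -1.44 ± 0.40 in the authors' deposited table (adjusted p = 0.00983, DESeq2). Gstt2 had 1373 in KO and 2719 in WT, and Gstt1 had 2338 in KO and 3723 in WT. The authors' deposited table gave log2 ratios of -0.99 ± 0.31 and -0.67 ± 0.20 for them (adjusted p = 0.036 and 0.023, DESeq2). The fourth, Gstt4, had a mean under 1 normalized count and no adjusted p.

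None of the 4 alpha class genes passed, although all 4 had lower means in KO livers. Gsta3, the Gst gene with the highest counts, again without regard to length, stood at 63344 in KO and 73724 in WT, and Gsta2 at 379.6 in KO and 1178 in WT with an SE of 1.00 on the log2 scale in the authors' deposited table. Gsta4, which acts on the lipid peroxidation product 4-hydroxynonenal, had 2698 in KO and 4728 in WT, and Gsta1 had 168 in KO and 252 in WT. Gsto1, an omega class enzyme that reduces dehydroascorbate, had 1884 in KO and 3030.1 in WT and missed the threshold (adjusted p = 0.0809 in the authors' deposited table, DESeq2). Gsto2 averaged under 14 normalized counts in either group. Gstk1, found in mitochondria and peroxisomes, and Gstz1, the maleylacetoacetate isomerase of tyrosine breakdown, had log2 ratios of -0.27 ± 0.17 and -0.16 ± 0.18 in the authors' deposited table and did not pass.

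Among the Ugt genes only Ugt1a10 passed at 8 weeks, at 72.3 normalized counts in KO and 19.7 in WT livers. The authors' deposited table gave it a log2 ratio of 1.88 ± 0.60 (adjusted p = 0.0378, DESeq2). The Ugt1a genes share their last exons, so reads from those exons cannot be assigned to 1 of them. The value for Ugt1a10, a member of low counts, is therefore uncertain. The other 6 tested Ugt1a genes had log2 ratios between -0.46 and 0.32 in the authors' deposited table. The Ugt2b genes, which glucuronidate steroids and bile acids, spread to both sides, from -0.49 ± 0.19 for Ugt2b34 to 0.83 ± 0.33 for Ugt2b1 in the authors' deposited table, and none of 7 passed. Ugt2b5, with 10520.5 normalized counts in KO and 11434 in WT, and Ugt2a3, with 6333 in KO and 8236 in WT, were among those that did not. Ugt3a1 and Ugt3a2, whose human counterparts use sugars other than glucuronic acid, both had lower means in KO livers. Ugt3a1 stood at 519 in KO and 1095 in WT, and Ugt3a2 at 4184 in KO and 6034 in WT. Neither passed, with adjusted p = 0.129 and 0.207 in the authors' deposited table (DESeq2).

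The Sult genes held the members furthest below WT at 8 weeks. Sult3a1, an amine sulfotransferase, averaged 149.9 normalized counts in KO and 4220.1 in WT livers, and its log2 ratio was -4.82 ± 1.24 in the authors' deposited table (adjusted p = 0.00481, DESeq2). Its neighbour Sult3a2 stood at 0.189 in KO and 80.2 in WT. With the KO level of Sult3a2 set to a floor of 3 counts per library, it was 26.7-fold lower than WT, a size that rests on that choice. The adjusted p was 5.65e-07 in the authors' deposited table (DESeq2). At the listed m6A sites the input libraries, the same ones that gave the RNA table, held 271 reads of Sult3a1 in KO and 7931 in WT, and 12 reads of Sult3a2 in KO and 191 in WT, summed over 3 animals. For Sult3a2 these reads gave a log2 ratio of KO over WT of -3.94, a smaller difference than the -4.74 from the floor.

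The upstream windows of this pair on chromosome 10 are shown because both genes fell furthest. They are again the 250 bases before the RefSeq start in GRCm38.p6, at chr10:33857472-33857721 on the plus strand for Sult3a1 and at chr10:33782116-33782365 on the minus strand for Sult3a2. Capitals mark a match to TTCNNNGAA, the pattern bound by STAT factors, in Sult3a1, and the matches to the TATA box letters TATAAA on either strand in Sult3a2.
Sult3a1: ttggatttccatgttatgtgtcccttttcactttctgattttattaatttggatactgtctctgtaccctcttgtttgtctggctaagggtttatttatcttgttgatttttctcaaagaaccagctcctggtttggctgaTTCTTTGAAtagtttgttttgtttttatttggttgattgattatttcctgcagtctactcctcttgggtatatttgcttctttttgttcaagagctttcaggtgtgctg
Sult3a2: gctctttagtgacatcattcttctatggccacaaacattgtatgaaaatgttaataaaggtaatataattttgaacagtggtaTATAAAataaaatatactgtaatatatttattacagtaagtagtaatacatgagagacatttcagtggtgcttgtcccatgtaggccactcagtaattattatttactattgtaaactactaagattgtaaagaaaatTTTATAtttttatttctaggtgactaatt
On both strands, TTCNNNGAA stands in 8.3% of the 32851 promoters and TATAAA in 13.6%, so neither is rare. The STAT pattern was also present in the windows of Gsta1, Gstm6 and Ugt1a6a among the members. The 300-base windows of Sult3a1 and Sult3a2 were identical at 56.3% of bases.

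Sult1d1, which sulfates catecholamines in mice, fell to 2265 normalized counts in KO, against 4912 in WT, a log2 ratio of -1.12 ± 0.27 in the authors' deposited table (adjusted p = 0.00181, DESeq2). Sult2a7 stood at 29.9 in KO and 265 in WT, with -3.15 ± 0.90 in the authors' deposited table (adjusted p = 0.0147, DESeq2). The Sult2a genes sulfate hydroxysteroids and bile acids, and 6 of the 7 tested had lower means in KO livers. Sult2a1 had 1351 in KO and 7461 in WT and Sult2a2 1392 in KO and 4879 in WT. Their log2 ratios of -2.47 and -1.81 were smaller than their SEs of 2.68 and 2.70 in the authors' deposited table, and neither passed. Sult2a8 was the tested Sult2a gene with a higher KO mean, 13901 against 11239 in WT, and it did not pass. Sult1a1, the main phenol sulfotransferase, had 18633 in KO and 21108 in WT and did not pass. Sult5a1, at 79.4 in KO and 295 in WT, did not pass either (adjusted p = 0.156 in the authors' deposited table, DESeq2). The other tested members of the family, Sult1b1, Sult1c2, Sult1e1, Sult2a3, Sult2a5 and Sult2a6, had log2 ratios from -4.34 ± 2.45 for Sult2a3 to 0.70 ± 2.25 for Sult1e1 in the authors' deposited table and did not pass. Sult2a4, Sult2b1, Sult4a1 and Sult6b1 had means under 10 in every table, and Sult1c1 and Sult6b2 were listed at 0, as were Ugt2a1 and Ugt2a2 among the Ugt genes.

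**Figure D1:**
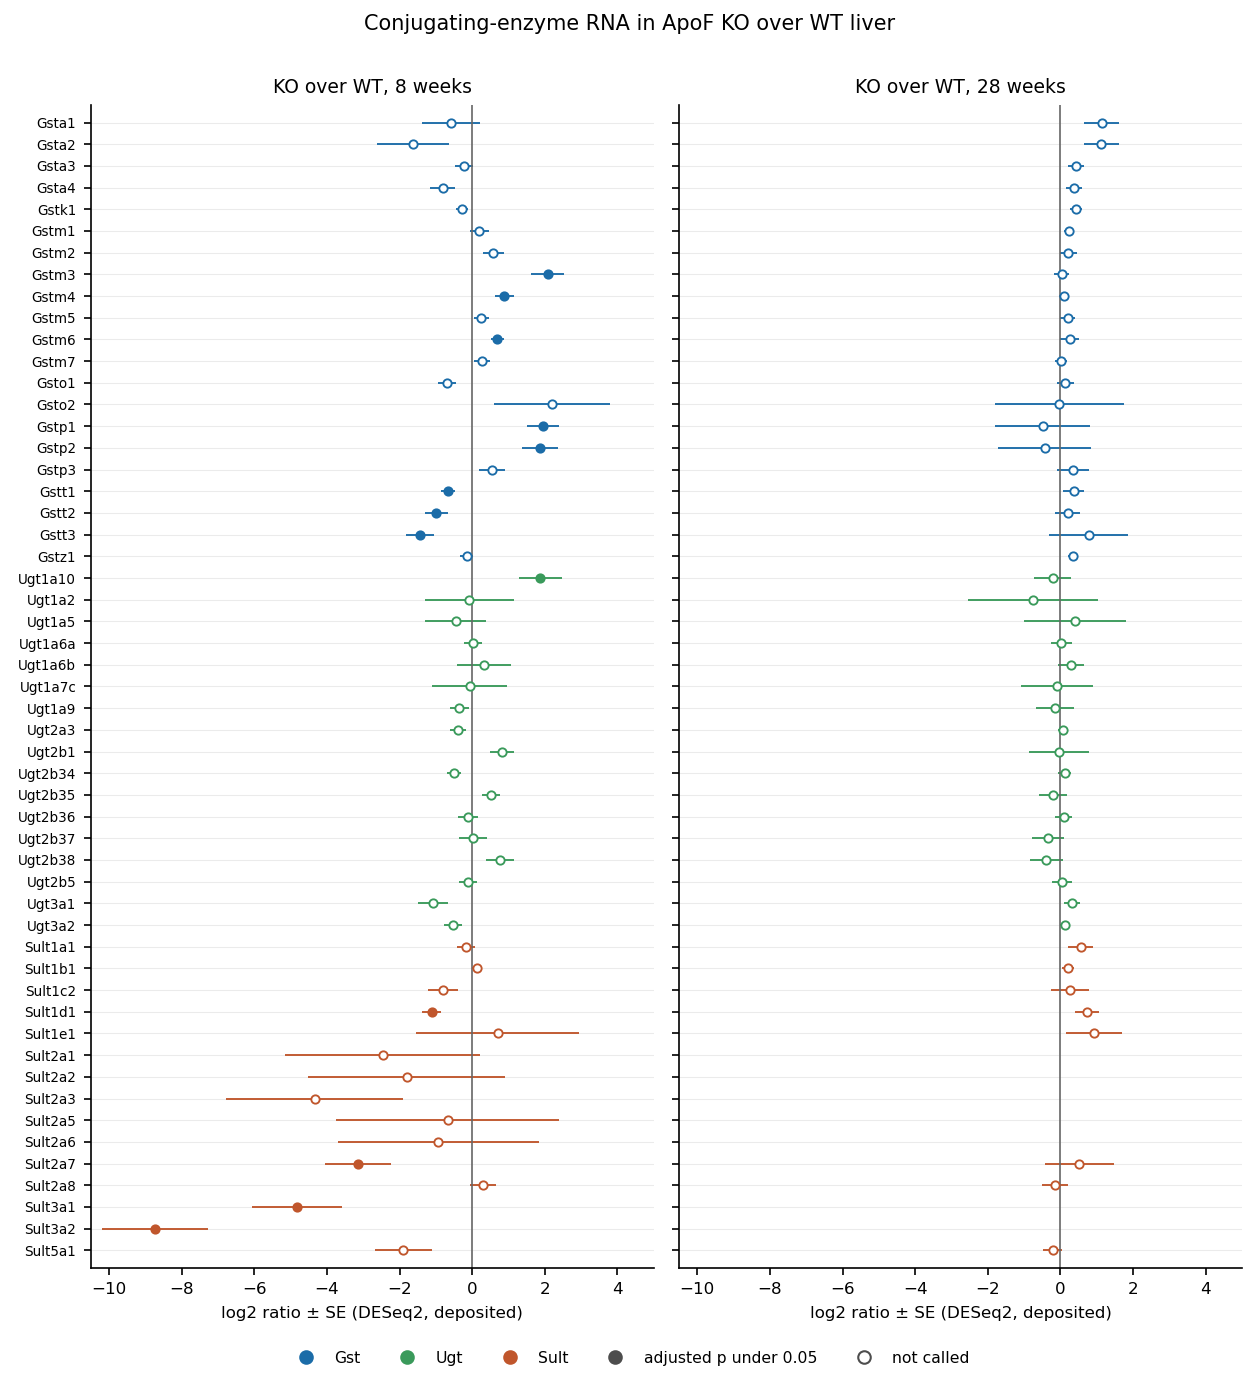
Each point is the deposited log2 ratio of KO over WT liver RNA with its SE, at 8 weeks on the left and at 28 weeks on the right, for members with an adjusted p, and filled points passed an adjusted p under 0.05. The 13 filled points all stand in the 8-week panel, and the Sult2a and Sult3a genes without an adjusted p at 28 weeks leave empty rows. The point for Sult3a2 is a fitted ratio against a KO mean of 0.189 and not a measured size.

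Lists of sex-biased liver genes moved in the same 8-week comparison. Of 15 genes known to be higher in males 10 rose and 0 fell in the authors' deposited table, with summed levels of 540523 normalized counts in KO and 142709 in WT. Of 15 genes known to be higher in females 6 fell and 0 rose in the authors' deposited table, with summed levels of 16377 in KO and 99244 in WT. Of 9 stellate cell markers 3, all collagens, rose in the authors' deposited table, at a summed 24607 in KO and 11915 in WT, and of 6 erythroid markers 3 rose, at a summed 12900.2 in KO and 3560.3 in WT. Of 11 tested hepatocyte markers 1 rose, and 1 of 9 lymphocyte markers, Cd3g, fell in the authors' deposited table. Of 4 tested gut, pancreas and kidney markers 1, Lgals4, fell there. None of 10 Kupffer, 10 endothelial or 7 tested cholangiocyte markers passed. Their part in the members' values was not tested. Fewer cells of a type and less RNA per cell cannot be told apart in whole liver.

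Other genes of the conjugation pathways passed in small numbers at 8 weeks. Of 10 genes that supply the donors, Papss2, which makes PAPS, fell to 8119 normalized counts in KO, against 13233 in WT (-0.70 ± 0.18 log2 in the authors' deposited table, adjusted p = 0.00481, DESeq2), and 9 did not pass. Of 10 tested carriers of donors and conjugates, Abcc3, a sinusoidal exporter of glucuronides, fell (log2 ratio -0.77 ± 0.22 in the authors' deposited table). Of 7 tested enzymes that remove or trim conjugates, Arsa, a lysosomal sulfatase, rose (1.71 ± 0.36), as did Tpmt, a thiopurine methyltransferase (1.07 ± 0.25), among the methyl, acetyl and amino acid transferases in the authors' deposited table. Of 15 receptors and factors known to control conjugating enzymes 2 fell and 0 rose. Nr1i3, the constitutive androstane receptor, stood at 2332 normalized counts in KO and 6495 in WT, with -1.48 ± 0.25 in the authors' deposited table (adjusted p = 9.33e-07, DESeq2), and Stat5a had a log2 ratio of -0.81 ± 0.18 there. Of 10 Nrf2 targets outside the families Srxn1 rose (0.61 ± 0.20 in the authors' deposited table), whereas Nfe2l2, which encodes Nrf2, did not pass. None of 6 tested glutathione transferases of other families passed.

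At 28 weeks no member passed between KO and WT. Of 46 members with an adjusted p, 0 passed by DESeq2's Wald test in the authors' deposited table and 5 had an unadjusted p under 0.05, while 0.257% of 14391 genes passed, 0.0834% higher and 0.174% lower. The median log2 ratio was 0.16 over these members and 0.01 over all genes tested. Of the members 33 had a positive and 13 a negative ratio. The smallest p was that of Gstz1, at 35125 normalized counts in KO and 27744 in WT (log2 ratio 0.34 ± 0.12 in the authors' deposited table, p = 0.00414 by DESeq2, adjusted p = 0.345). Gstk1 followed, at 2952 in KO and 2193 in WT, and then Gsta1, at 506 in KO and 230.1 in WT, with adjusted p = 0.618 and 0.646 in the authors' deposited table (DESeq2).

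The 13 genes called at 8 weeks were not called at 28 weeks. Gstm3 stood at 1844 in KO and 1800.4 in WT, a log2 ratio of 0.03 ± 0.21 in the authors' deposited table. Gstp1 averaged 13785 in KO and 19295 in WT, and its log2 ratio carried an SE of 1.31 in the authors' deposited table. The 3 tested theta class genes had positive ratios, from 0.20 ± 0.35 for Gstt2 to 0.78 ± 1.09 for Gstt3 in the authors' deposited table. Sult1d1 averaged 3660.4 in KO and 2222 in WT. Sult2a1, Sult2a2, Sult2a3, Sult2a5, Sult3a1 and Sult3a2 were measured at means of 10 or more but had no p in the authors' deposited table. Of these, Sult3a1 averaged 1231 in KO and 3414 in WT, and Sult2a1 averaged 3495 in KO and 1045 in WT. Each had an SE of 3.73 on the log2 scale in the authors' deposited table. The reason for the missing p is not stated. Without values per library it cannot be seen whether an outlying animal set these means. None of the donor, carrier, deconjugation, receptor or Nrf2 list genes passed at 28 weeks, and none of the 15 male-biased genes did. The male-biased genes summed to 570883 in KO and 672162 in WT. Their median SE was 1.52 on the log2 scale, against 0.25 over all genes, so differences in them could be missed. Only 2 of 15 female-biased genes had an adjusted p and neither passed, while all 15 summed to 90478 in KO and 52905 in WT. Of 10 endothelial markers Stab1 and Stab2 fell, and no marker of the other cell types passed. The part of the sex makeup of the groups in the members' values at 28 weeks was not tested.

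**Figure D2:**
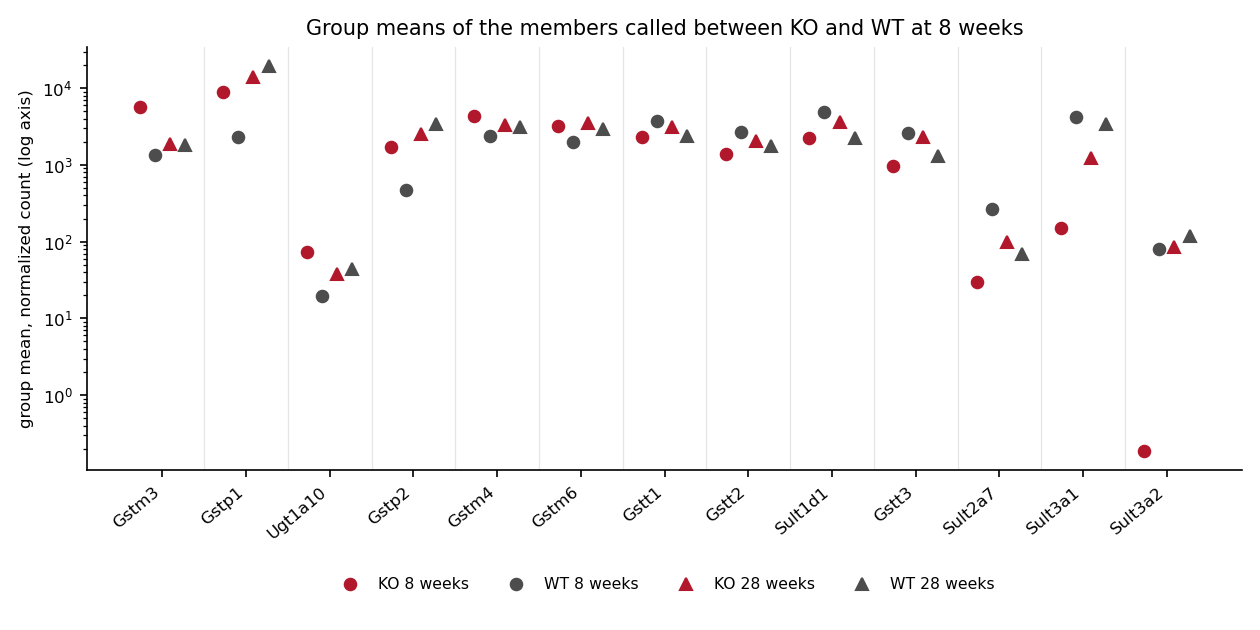
Group means in normalized counts on a log axis of the 13 members called at 8 weeks, with KO (red) and WT (grey) at 8 weeks as circles and at 28 weeks as triangles; the points have no error bars because the tables hold no values per library, and the ages come from tables normalized separately. Gstp1 and Gstp2 are lowest in 8-week WT, and the KO mean of Sult3a2 at 8 weeks lies under 1.

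The difference between the ages was tested directly, since the 8-week and 28-week comparisons share no library. The KO over WT log2 ratio at 28 weeks minus that at 8 weeks passed for 2 of 46 members (Wald test on the deposited ratios and SEs, Benjamini-Hochberg over all genes), with 1 higher and 1 lower, against 1.58% of 14278 genes, 0.784% higher and 0.791% lower. Gstm3 differed by -2.04 ± 0.49 (adjusted p = 0.00599 across all genes tested with the DESeq2 values), with log2 ratios of 2.08 at 8 weeks and 0.03 at 28 weeks. Sult1d1 differed by 1.84 ± 0.42 (adjusted p = 0.00302 on the same basis), with a KO mean below WT at 8 weeks and above it at 28 weeks. The next members by p, Gstt1 and Ugt3a1, had differences of 1.04 ± 0.35 and 1.40 ± 0.48 and did not pass (adjusted p = 0.121 and 0.125 from the same fit to the DESeq2 values). Opposite signs at the 2 ages were seen for 30 of the 46 members and for 7381 of all 14278 genes.

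In ageing KO livers, 5 of 46 tested members passed in the authors' deposited table (DESeq2 Wald test), 4 higher and 1 lower at 28 than at 8 weeks. Of 14798 genes 4.49% passed, 2.03% higher and 2.46% lower, and the median log2 ratio was 0.36 over the members and 0.00 over all genes. Ugt3a1 rose to 1649 normalized counts at 28 weeks, against 496 at 8 weeks, a log2 ratio of 1.73 ± 0.42 in the authors' deposited table (adjusted p = 0.00291, DESeq2). Sult1b1, which sulfates thyroid hormones and phenols, stood at 1588 at 28 and 1047 at 8 weeks. Gstk1 stood at 3126 at 28 and 2080.4 at 8 weeks, and Gstz1 at 37192 at 28 and 25725 at 8 weeks. The adjusted p of these 3 were 0.0335, 0.0125 and 0.0329 in the authors' deposited table (DESeq2). Gstm3 fell to 1952 at 28 weeks, against 5375 at 8 weeks (-1.46 ± 0.44 log2 in the authors' deposited table, adjusted p = 0.0239, DESeq2). The 4 alpha class genes had higher means at 28 weeks and did not pass, with Gsta2 at 1747 at 28 and 362 at 8 weeks (adjusted p = 0.12 in the authors' deposited table, DESeq2). Sult1e1, Sult2a1, Sult2a2, Sult2a3, Sult2a5, Sult3a1 and Sult3a2 had no p here at means of 10 or more, so they were not tested. Sult3a1 averaged 1307 at 28 and 143 at 8 weeks, and Sult2a3 averaged 524 at 28 and 12.6 at 8 weeks. Sult1e1 and Sult2a5 had lower means at 28 weeks. In the same comparison 6 of 8 tested stellate markers fell, at a summed 8171 at 28 and 23502 at 8 weeks, and 3 of 10 endothelial markers, 1 of 6 erythroid markers and 1 of 11 hepatocyte markers, Alb, fell in the authors' deposited table. Of 7 tested cholangiocyte markers 1 rose, Tspan8, at 26.1 normalized counts at 28 and 0.179 at 8 weeks. Of 15 male-biased genes 1 rose, Cyp7b1, with a summed 602767 at 28 and 516576 at 8 weeks. Only 4 of 15 female-biased genes had an adjusted p, all 4 with negative ratios, and none passed. Over all 15 the female-biased genes summed to 96054 at 28 and 15622 at 8 weeks. No Kupffer or lymphocyte marker passed by DESeq2 in the authors' deposited table. The part of all these markers, and of the sex makeup of the groups, in the members' values was not tested.

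In ageing WT livers, 9 of 50 tested members passed in the authors' deposited table (DESeq2 Wald test), 7 higher and 2 lower at 28 weeks, while 4.24% of 13474 genes passed, 2.37% higher and 1.86% lower. The median log2 ratio was 0.03 over the members and -0.01 over all genes. This comparison shares its 8-week WT libraries with the 8-week genotype comparison, so the values of both are given side by side and their likeness is no separate result. Gstp1 rose to 20224 normalized counts at 28 weeks, against 2165 at 8 weeks, and Gstp2 to 3597 at 28 weeks, against 439 at 8 weeks. Their log2 ratios were 3.22 ± 0.93 and 3.03 ± 0.95 in the authors' deposited table (adjusted p = 0.0193 and 0.0381, DESeq2), beside 1.94 and 1.87 for KO over WT at 8 weeks. Gstm6 had a log2 ratio of 0.70 ± 0.20 (adjusted p = 0.0173) in the authors' deposited table, beside 0.69 for KO over WT at 8 weeks.

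Both Ugt2b genes that rose with age in WT had more counts at 28 weeks in the authors' deposited table, Ugt2b1 with 8813 at 28 and 3455 at 8 weeks, and Ugt2b38 with 1141 at 28 and 477 at 8 weeks. The log2 ratios were 1.35 ± 0.37 and 1.26 ± 0.36 (adjusted p = 0.0124 and 0.0194, DESeq2). Ugt1a9, which glucuronidates phenols, fell to 1218 at 28 weeks, against 2275 at 8 weeks (-0.90 ± 0.16 log2 in the authors' deposited table, adjusted p = 9.09e-06, DESeq2). Among the Sult genes Sult2a8, described in mice as a bile acid sulfotransferase, stood at 18617 at 28 and 10594 at 8 weeks (adjusted p = 0.00277 in the authors' deposited table, DESeq2). Sult1b1 rose in WT as in KO, to 1371 at 28 weeks, against 948 at 8 weeks (adjusted p = 0.00083 in the authors' deposited table, DESeq2). Sult1d1 fell to 2327 at 28 weeks, against 4630.4 at 8 weeks (-0.99 ± 0.28 log2 in the authors' deposited table, adjusted p = 0.0151, DESeq2). Sult3a1 and Sult3a2 did not pass, with log2 ratios of -0.16 ± 3.54 and 0.72 ± 2.98 in the authors' deposited table. Sult2a1 did not pass either, at 1093 at 28 and 7032 at 8 weeks and -2.69 ± 2.58 in the authors' deposited table.

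The groups of this comparison differed in Y-linked RNA as at 8 weeks, with 4722 normalized counts over the 4 genes at 28 weeks and 3.29 at 8 weeks. Of 15 male-biased genes 13 rose, with a summed 704431 at 28 and 134520 at 8 weeks. Of 11 tested female-biased genes 1 fell, Slc22a29, and 10 had negative log2 ratios in the authors' deposited table. All 15 female-biased genes summed to 55348 at 28 and 93545 at 8 weeks. Of 11 tested hepatocyte markers Serpina1c rose and Tat fell, and Sox9 rose among 7 cholangiocyte markers, Alas2 among 4 erythroid markers and Cela1 among 3 gut, pancreas and kidney markers in the authors' deposited table. No Kupffer, endothelial, stellate or lymphocyte marker passed by DESeq2 there. The part of these markers in the members' values was not tested. Age and sex makeup cannot be told apart here. Without the Gstp, Ugt1a and Sult2a genes, whose reads can be shared between copies, 5 members passed in place of 9.

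**Figure D3:**
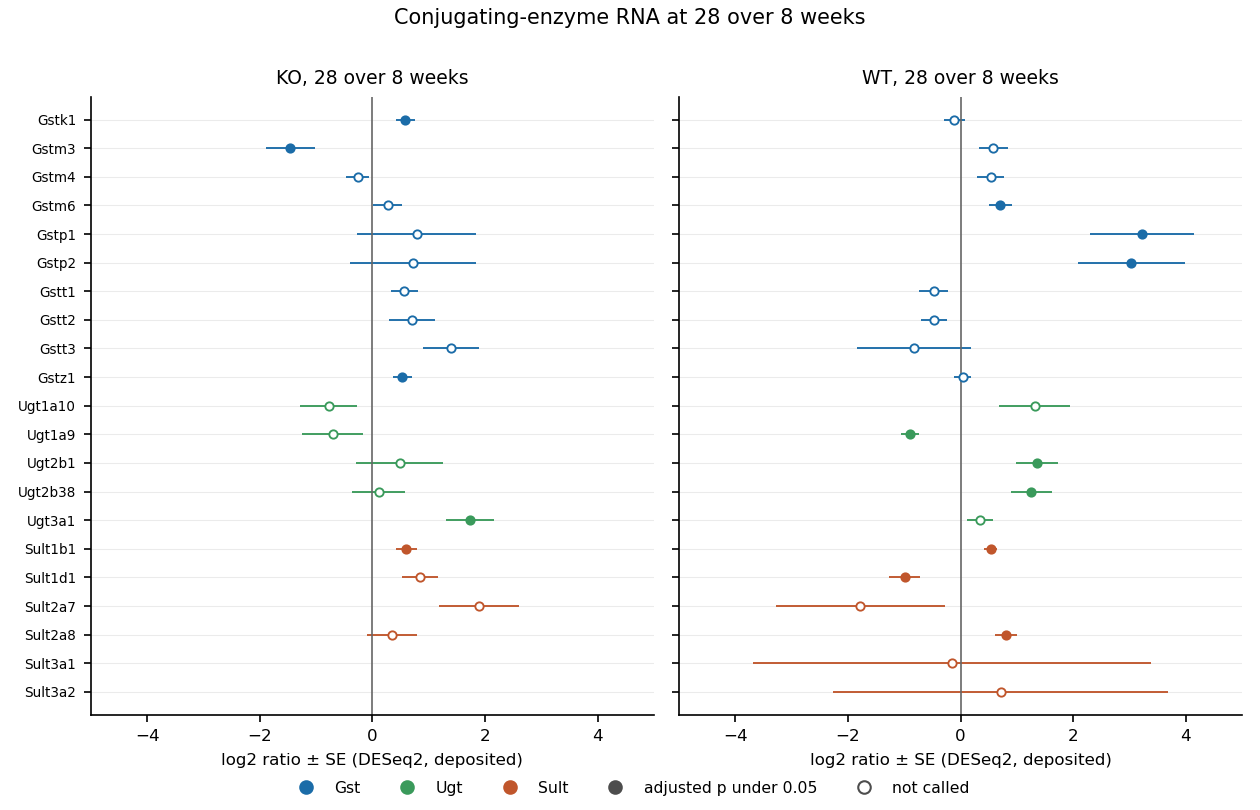
Deposited log2 ratios of 28 over 8 weeks with their SE, in KO on the left and WT on the right, for the 21 members called in at least 1 RNA comparison; filled points passed an adjusted p under 0.05. Gstm3 lies at -1.46 in KO and 0.58 in WT, and Sult1b1 is filled in both panels. Sult3a1 and Sult3a2 have no adjusted p in KO and leave empty rows in that panel.

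Of the pathway lists, 2 donor genes rose with age in KO livers, Ugdh, which makes UDP-glucuronic acid, and Cth, which makes cysteine for glutathione, at log2 ratios of 0.64 ± 0.19 and 1.02 ± 0.24 in the authors' deposited table, of 10 tested. In WT livers 1 donor gene of 10 rose with age, Papss1 at 0.51 ± 0.14 in the authors' deposited table. Nat8, which acetylates cysteine conjugates to mercapturates, rose in both, to 387 normalized counts at 28 weeks, against 37.9 at 8 weeks, in KO, and to 365 at 28 weeks, against 18.7 at 8 weeks, in WT. Its log2 ratios were 3.35 ± 0.79 and 4.28 ± 1.30 in the authors' deposited table (adjusted p = 0.00193 and 0.03, DESeq2). Ggt6 rose (0.95) and the methyltransferase Inmt fell (-0.97) on the log2 scale in the authors' deposited table for KO. In that for WT, Arsa (1.78) and the microsomal transferase Mgst1 (0.57) rose, and Abcc4 (-1.15), Nr1i3 (-1.10) and Nqo1 (-1.14) fell.

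Across the 4 RNA comparisons 21 members passed at least once and 6 passed in 2 or more, which were Gstm3, Gstm6, Gstp1, Gstp2, Sult1b1 and Sult1d1. The same counts were not made over all genes, so these are descriptions only. Gstm6, Gstp1, Gstp2 and Sult1d1 passed in the comparisons that share the 8-week WT libraries, and Gstm3 in those that share the 8-week KO libraries. Members at or near 0 were few. Between KO and WT at 8 weeks, 9 members had means under 10 and no adjusted p, of which 4 were listed at 0. The log2 ratios of the named members had the same sign when centred on the median of all genes, which moved no comparison by more than 0.014.

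m6A was read at sites, each with IP and input reads summed by the authors over the 3 animals of a group. The members held 111 sites in 46 genes at 8 weeks, 118 in 47 genes at 28 weeks and 112 in 45 genes in the WT age table, of 52025, 52315 and 51883 sites in all. In 14 members, Gstp2 and Ugt1a10 among them, no site was listed in any table. The deposited log2 difference of a site was the log2 difference in IP over input reads minus an offset that varied by site. Over sites with at least 50 reads of each kind, the median offset was 0.18 at 8 weeks, -0.05 at 28 weeks and 0.26 for WT age. The sizes and signs of the differences below therefore need not match the printed reads. The SE that the deposited p implies equalled the counting error of the summed reads, so that p holds no spread between animals. Positions of sites are not used here.

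The median member site had less IP relative to input than the median of all sites in each group, a difference that was not tested. Over the 99 member sites with at least 50 input reads in each group at 8 weeks, the median log2 of IP over input reads was -0.14 in KO and -0.33 in WT, while it was 0.14 in KO and -0.05 in WT over all such sites. At 28 weeks the medians over 108 member sites were -0.17 in KO and -0.12 in WT, and 0.15 in KO and 0.22 in WT over all sites. The Gst sites were lowest at 8 weeks, at -0.36 in KO and -0.62 in WT, and the Sult sites highest, at 0.06 in KO and -0.15 in WT. These medians are descriptions, since sites of 1 gene share its reads.

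Between KO and WT at 8 weeks, 20 of 87 tested member sites passed in the authors' deposited table, 19 higher and 1 lower in KO, in 19 genes. Over all sites 10.9% passed, 5.52% higher and 5.43% lower. With the statistic divided by its robust SD over all sites, 7 member sites passed, against 2.9% of all sites. At its main site Ugt2b37 had 3020 IP and 1357 input reads in KO and 2143 IP and 2114 input reads in WT, a log2 difference of 1.02 in the authors' deposited table. Sult2a4 had 109 IP and 73 input reads in KO and 267 IP and 402 input reads in WT (1.05 in the authors' deposited table). These were the 2 called member sites past 2-fold, and both values are uncertain. The 2114 WT input reads of Ugt2b37 at its main site exceed the 1368.5 normalized counts of the whole gene, summed over the same 6 libraries. At 28 weeks the WT reads of that site and the counts of the gene were 2039 and 1505. The Sult2a4 value is uncertain, since the same 6 input libraries gave that gene a mean of 0.619 normalized counts, about 3.71 over all 6, in the authors' deposited table, far under the reads at its site, and whether those reads belong to other Sult2a genes was not tested. Gsta3, whose first site had the most reads, had 110138 IP and 112124 input reads in KO and 98578 IP and 124942 input reads in WT, a log2 difference of 0.16 in the authors' deposited table. Sites of Ugt2b36, Ugt2a3, Gsta2, Ugt2b5, Sult1d1 and Gstz1 were higher by 0.22, 0.22, 0.40, 0.19, 0.21 and 0.07 in the authors' deposited table, and a site of Gstm1 was lower (-0.20).

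At 28 weeks 13 of 81 tested member sites passed in the authors' deposited table, 7 higher and 6 lower in KO, in 11 genes, while 9.18% of all sites passed, 2.57% higher and 6.62% lower. Divided by the robust SD, 4 member sites passed, against 2.71% of all sites. Ugt2b38 had 4195 IP and 2654 input reads in KO and 3918 IP and 3541 input reads in WT at its first site, a log2 difference of 0.57 in the authors' deposited table. The whole gene had 5772 normalized counts over the same 6 input libraries, fewer than the input reads of both groups at this site, so the value is uncertain. Gstp1 had 9697 IP and 15024 input reads in KO and 13314 IP and 23167 input reads in WT (0.20 in the authors' deposited table). Sult1d1 was lower at this age, with 5323 IP and 5504 input reads in KO and 3378 IP and 3017 input reads in WT (-0.20 in the authors' deposited table). Gsta3 rose at 2 sites, by 0.09 and 0.10, Ugt2b37 rose by 0.22 and Ugt2b1 by 0.13, whereas Sult1a1, Ugt2b5 and a site of Gstm3 were lower, with differences of -0.13, -0.14 and -0.32 in the authors' deposited table. A called site at both ages was present in 7 members, which were Gsta3, Gstm3, Gstz1, Sult1a1, Sult1d1, Ugt2b37 and Ugt2b5. Over all genes with a site, 2181 of 13440 had a called one at 8 weeks and 1384 of 13318 at 28 weeks, and their overlap was not counted. The site and the direction need not be the same at both ages, as Sult1d1 was higher at 8 weeks and lower at 28 weeks.

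Between 28 and 8 weeks in WT, 22 of 81 tested member sites passed in the authors' deposited table, 18 higher and 4 lower at 28 weeks, while 11.3% of all sites passed, 9.06% higher and 2.2% lower. Divided by the robust SD, 11 member sites passed, against 2.72% of all sites. Sult3a1 had 11905 IP and 6158 input reads at 28 weeks and 10160 IP and 7940 input reads at 8 weeks, a log2 difference of 0.43 in the authors' deposited table. Sult1d1 had 3355 IP and 2966 input reads at 28 weeks and 5856 IP and 7007 input reads at 8 weeks (0.30 in the authors' deposited table). Sites of Sult2a1, Ugt2b37, Sult2a2, Ugt2b5, Ugt2b36 and Sult1a1 were higher by 0.39, 0.39, 0.33, 0.19, 0.17 and 0.17, and sites of Gstm1 and Gsta3 were lower, with differences of -0.22 and -0.18 in the authors' deposited table. The Gstm1 site had 4668 IP and 7350 input reads at 28 weeks and 4547 IP and 7577 input reads at 8 weeks. The Gsta3 site had 6344 IP and 9895 input reads at 28 weeks and 11133 IP and 18301 input reads at 8 weeks. Both were lower at 28 weeks only after the offset was taken off. No member site of this comparison differed by 2-fold among those called. With reads summed per group, these site values have no replicate check.

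**Figure D4:**
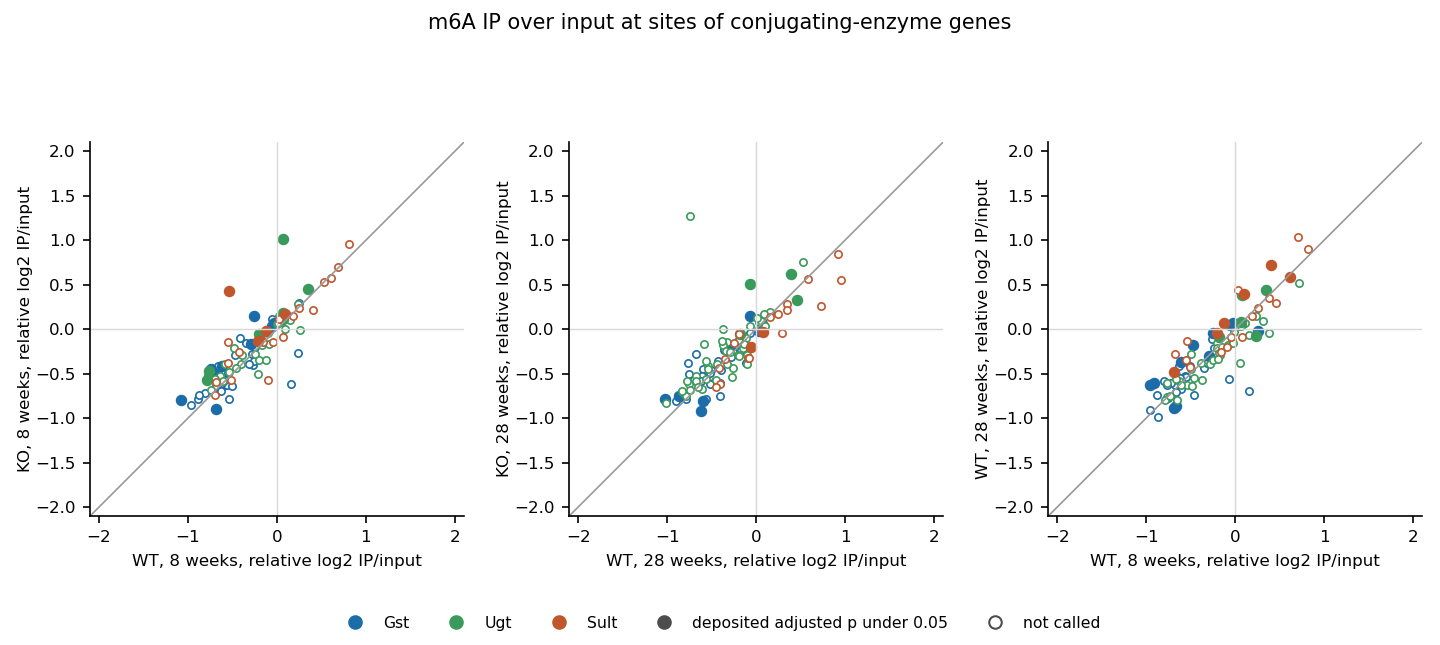
Each point is 1 member site with at least 50 input reads in both groups, placed by its log2 IP over input reads minus the median of all such sites, in KO (vertical) against WT (horizontal) at 8 and at 28 weeks and in WT at 28 weeks (vertical) against 8 weeks (horizontal). Filled points passed the deposited adjusted p under 0.05, and 74 of the 99 sites at 8 weeks lie below the all-site median in KO and 74 in WT.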

How the data were processed

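Input and m6A libraries of 12 mouse livers were compared in tables that hold no values per library. The library kit keeps strand and adds unique molecular identifiers, per the labels' protocols. Per the submitters' processing notes, the tools included HISAT2, StringTie and DESeq; their versions, the build, the caller of sites and any use of the identifiers are not stated there. The deposited signal column holds the authors' mean of counts divided by size factors, over the 6 libraries of a comparison. The log2 ratios, SEs and p-values of the RNA tables are the authors' DESeq2 output, and the log2 and p-value columns of the site tables are the authors' own, deposited with an adjusted p. Each site count was deposited as reads summed over a group's libraries. The score columns, the deposited Wald statistics, entered no result given here.

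The files do not say which group each ratio has on top, so this was read from the values. Summed around the 4 comparisons, the RNA ratios of 11626 genes missed 0 by a median of 0.00357 (log2) with alike signs and by 0.435 otherwise, and input reads were correlated negatively with the deposited ratios (Pearson r of -0.72, -0.56 and -0.71 across genes, which are no replicates). The RNA ratios were turned round, and positive means higher in KO or at 28 weeks. Site columns were assigned to groups by identical sums in different tables, at 21900 and 22361 sites for WT columns and at 31 to 56 for mismatched ones. The 4 columns of the KO age site table, which matched no group, were not used. Tables were normalized separately, and group means were computed from the mean and the ratio.

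The planned edgeR fits need counts per library, so the authors' adjusted p over each whole table, under 0.05, is the test. An adjusted p given as NA stayed NA. The interaction was a Wald test on deposited ratios and SEs, adjusted over all genes. Its code and that of the site test were tested on simulated data, with DESeq2 1.42.0 fitting the simulated counts. In that simulation the interaction test called more unchanged genes than its threshold allows, and the site test called many unchanged sites once animals varied, so calls of both are less certain than their adjusted p. RNA p-values measure the spread between 3 animals per group, and the site p-values hold counting error only.

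Named genes were the called members, the member with the highest mean of each subfamily, the 3 smallest p where fewer than 3 passed, up to 10 called sites and the 3 deepest sites per comparison, and up to 4 called genes of each list; others are named as examples after their values were seen. The members and the lists of genes were chosen with earlier results of these data known. Promoters came from RefSeq (GRCm38.p6). Alternatives were other filters, centring, thresholds and fold minimums. R 4.3.3 and Python 3.11.15 were used, with Biopython 1.88, matplotlib 3.10.9, pandas 2.3.3, numpy 2.4.6 and scipy 1.17.1. The results of 1 gene of the pathway lists are not reported here.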

Additional observations from a re-analysis of the deposited data

Results flagged for a closer look

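Gstm3 and Sult1d1 were flagged because their KO over WT ratios differed between the ages by a direct test. Gstm3 differed by -2.04 ± 0.49 on the log2 scale at 28 weeks minus 8 weeks, and Sult1d1 by 1.84 ± 0.42, from 3 animals per group. The age comparisons, which hold the same libraries, gave -2.05 ± 0.50 for Gstm3 and 1.83 ± 0.42 for Sult1d1. Y-linked RNA was nearly absent in the 8-week WT group, which enters both differences, and its part in them was not tested.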

How the results depend on the processing

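Counts of called members stayed within 1.5 times of the reported ones in 25 of 40 recomputed counts. At an adjusted p under 0.01, members called numbered 8 for KO against WT at 8 weeks, 3 for age in WT and 1 for age in KO, and calls of at least 2-fold numbered 4 for age in WT and 2 for age in KO. Without the Gstp, Ugt1a and Sult2a genes, 5 passed for age in WT, fewer genes being counted. Member sites of m6A at 8 weeks numbered 12 by the recomputed Wald test, 13 at 0.01, 2 past 2-fold and 7 with the robust SD, a setting chosen after seeing the data. At 28 weeks they numbered 8 at 0.01, 0 past 2-fold and 4 with the robust SD, and for age in WT 0 past 2-fold and 11 with the robust SD. The cause was not tested where no construction gives it. All 120 centred log2 values of named members kept their direction and their side of the threshold. No paired analysis was possible because input and IP libraries share animal numbers but the tables hold no values per library. For the same reason leaving out replicates, and edgeR or DESeq2 refits, were not run. Depth limits members with means under 10 and no adjusted p, 9 to 11 per table; 6 more for genotype at 28 weeks and 7 for age in KO had no p at means of 10 or more, so low counts were not the limit there.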

Other observations

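Some members were read differently in the site and gene tables. Sult1c1 was listed at 0 in all RNA tables, but its 1 listed site held 28 input reads in KO and 29 in WT at 8 weeks. Sult2a4, the site of which was called at 8 weeks, had a mean of 0.619 normalized counts in that RNA table, while its site held 73 input reads in KO and 402 in WT. Summed input reads at the 2 sites of Ugt2b37 gave a log2 ratio of KO over WT of -0.63 at 8 weeks, while the RNA ratio of the authors' deposited table was 0.03. For Ugt2b38 the summed reads of 5 sites gave 0.24, while the RNA ratio of the authors' deposited table was 0.76. How reads that match several of these near copies were assigned is not stated.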
